A study of Mus musculus with 15 samples.

Results

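The tricarboxylic acid (TCA) cycle genes described here are 9 genes for mitochondrial enzymes that carry out its steps: Cs, Idh3a, Idh3b, Idh3g, Ogdh, Dlst, Sucla2, Fh1 and Mdh2. They are a list of names, and the list was chosen with earlier results of these data known. A gene was read from the transcript cluster, a set of array probes for 1 gene or locus, that carried its symbol alone, and from the one with the highest mean where a gene had several. All 9 had such a cluster, which makes 9 of the 23332 clusters on the array. The cells were myotubes, the multinucleate muscle cells that form when mouse primary myoblasts differentiate in culture. Adenovirus was added 48 h after differentiation was started, at 100 infectious particles per cell (multiplicity of infection). It expressed GFP alone in the control group. In the 4 other groups a separate promoter of the same virus drove a mouse PGC-1a isoform beside GFP: 1 group each for PGC-1a1, PGC-1a2 and PGC-1a3, and 1 for PGC-1a4. All 5 groups therefore carried the virus and GFP. RNA was taken about 60 h after transduction and measured on exon arrays, 3 arrays in each group. For the PGC-1a4 arrays the source name in the labels reads isoform 1, while the titles read PGC-1a4, and the titles were followed. The labels do not say whether the 3 arrays of a group came from separate cultures, and the spread behind every p-value below may thus be technical.

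The TCA cycle oxidises the acetyl group of acetyl-CoA in the mitochondrial matrix and passes the electrons to NAD+ and FAD, which feed the respiratory chain. Citrate synthase (Cs) starts it. Isocitrate dehydrogenase 3 (Idh3a, Idh3b and Idh3g) and the 2-oxoglutarate dehydrogenase complex (Ogdh and Dlst, with Dld) release carbon dioxide and make NADH. Succinyl-CoA ligase (Sucla2 is its ADP-forming beta subunit), succinate dehydrogenase, fumarase (Fh1) and malate dehydrogenase (Mdh2) return the carbon to oxaloacetate. PGC-1a, encoded by Ppargc1a, is a transcriptional coactivator known in muscle for raising genes of mitochondrial respiration, in part through the estrogen-related receptor ERRa (Esrra) and nuclear respiratory factors. The gene gives several proteins that differ in their promoter and splicing, and PGC-1a1 is the full-length form. The comparisons ask how each isoform changed these genes, and whether the isoforms differed from each other.

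The promoters of 4 of the genes are shown as examples. All 4 were called higher with PGC-1a1, and their calls differed with PGC-1a4. Cs and Sucla2 were called higher with both isoforms, and Dlst and Idh3g only with PGC-1a1. Ogdh and Fh1 were also called higher with both isoforms, and Idh3b and Mdh2 only with PGC-1a1, and their promoters are not shown. Of the genes searched, only Sucla2 and Idh3g held the NRF1 or ETS elements marked below. The genes were not tested against each other. The windows are the 250 bases before the annotated start, from RefSeq on build GRCm38.p6, written 5′ to 3′ on the gene's strand. Capitals mark the match to the element bound by NRF1 in Sucla2, which reads on the opposite strand, and the match to CCGGAAG, an element bound by ETS factors such as GABP, in Idh3g.
Cs promoter, chr10:128337477-128337726, plus strand: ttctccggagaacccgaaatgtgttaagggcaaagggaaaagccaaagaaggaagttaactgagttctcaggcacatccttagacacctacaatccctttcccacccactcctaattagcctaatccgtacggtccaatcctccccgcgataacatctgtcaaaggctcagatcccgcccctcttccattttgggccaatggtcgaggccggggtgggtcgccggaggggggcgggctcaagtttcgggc
Sucla2 promoter, chr14:73552536-73552785, plus strand: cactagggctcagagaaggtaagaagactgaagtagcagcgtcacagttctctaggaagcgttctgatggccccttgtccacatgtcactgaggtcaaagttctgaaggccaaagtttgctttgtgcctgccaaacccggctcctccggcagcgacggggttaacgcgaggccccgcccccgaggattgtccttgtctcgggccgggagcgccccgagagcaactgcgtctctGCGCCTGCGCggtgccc
Dlst promoter, chr12:85110583-85110832, plus strand: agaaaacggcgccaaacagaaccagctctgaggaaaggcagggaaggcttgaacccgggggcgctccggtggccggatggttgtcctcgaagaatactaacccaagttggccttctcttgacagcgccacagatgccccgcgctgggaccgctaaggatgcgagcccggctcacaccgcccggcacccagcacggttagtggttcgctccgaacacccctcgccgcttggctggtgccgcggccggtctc
Idh3g promoter, chrX:73786898-73787147, minus strand: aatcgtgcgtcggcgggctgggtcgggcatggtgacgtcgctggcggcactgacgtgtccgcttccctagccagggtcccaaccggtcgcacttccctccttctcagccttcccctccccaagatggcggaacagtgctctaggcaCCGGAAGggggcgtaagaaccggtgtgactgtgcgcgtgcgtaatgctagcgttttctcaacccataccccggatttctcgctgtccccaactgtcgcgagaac

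Of the 9 genes, 8 had such a window, and Ogdh had 6, 1 for each annotated start. Idh3a had none. Both strands were searched for fixed letters. The ERR element TNAAGGTCA and its core AAGGTCA, which lies within it, were found in the windows of 0 of the 8 genes, and in those of 1.302% and 4.703% of the 27025 genes in the table. The NRF1 element lay 17 bases before the start of Sucla2 and was present in 1 of the 8 genes, against 4.233% of all genes. The ETS element lay 104 bases before the start of Idh3g and was likewise present in 1 of the 8 genes, against 7.826% of all genes. The GC box GGGCGG was present in 6 of the 8 genes (Cs, Dlst, Fh1, Mdh2, Ogdh in 2 of its 6 windows, and Sucla2), against 35.356% of all genes, a gene counting where any of its windows held the letters. GC content was 55.2% in the Cs window, 61.2% in Sucla2, 64.8% in Dlst and 62.8% in Idh3g, where the median over all windows was 52.4%. A match is a description of these letters and not evidence of binding.

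The array values are log2 signals as the authors deposited them, and the median of an array lay between 5.48 and 5.66. The 9 genes lay between 8.72 and 12.21 log2 and above the upper quartile of the array (7.73 to 7.89) on all 15 arrays, so that they were among the brighter clusters, which does not rank them against each other. Ppargc1a, whose cluster may hold probes that not every isoform shares, had 12.55, 12.60 and 12.67 log2 on the PGC-1a1 arrays and 10.61, 10.43 and 10.34 on the PGC-1a4 arrays. It had 8.90, 8.88 and 8.85 log2 on the PGC-1a2 arrays, 9.15, 8.80 and 8.88 on the PGC-1a3 arrays, and 8.88, 8.12 and 8.58 on the GFP arrays. By limma its changes against GFP were 4.08 ± 0.16 with PGC-1a1 and 1.93 ± 0.16 with PGC-1a4 (SE, n = 3 per group), and 0.35 with PGC-1a2 (adjusted p = 0.22) and 0.42 with PGC-1a3 (adjusted p = 0.14). That neither PGC-1a2 nor PGC-1a3 passed rested on 1 array: without GFP replicate 1 both were called, at 0.53 with PGC-1a2 (adjusted p = 0.043) and 0.59 with PGC-1a3 (adjusted p = 0.030). Replicate 2 of GFP stood somewhat apart from the other GFP arrays (r = 0.982 and 0.983 across clusters, against 0.991 between replicates 1 and 3), and 8 of the 9 genes were below the GFP mean on it, by a median of 0.06 log2. The median SD within a group was 0.068 log2 in GFP and 0.037 to 0.051 log2 in the isoform groups for the 9 genes. All 9 measured myotube markers of 10 listed, such as Ckm and Acta1, were above the upper quartile on every array, and so were 5 to 6 of the 7 myoblast markers. No gene of the fibroblast, adipocyte, endothelial or macrophage lists was above the upper quartile. Of these, Lum, Fabp4, Lep, Kdr, Emcn, Ptprc and Adgre1 were below the lower quartile on all 15 arrays, whereas Col1a1, Col1a2, Col3a1 and Plin1 were above the median on all 15, Pparg on 14 and Cd68 on 13.

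With PGC-1a1, all 9 genes rose against GFP, from 1.23-fold for Idh3b to 1.98-fold for Idh3a. Over all clusters 4.44% were called higher in that comparison, where a call is an adjusted p under 0.05 by limma with Benjamini-Hochberg adjustment over the whole table. With PGC-1a4, 5 of the 9 rose (Idh3a, Ogdh, Sucla2, Cs and Fh1), where 7.05% of all clusters were called higher. With PGC-1a2, 2 of the 9 fell (Idh3a and Fh1), where 4.77% were called lower. With PGC-1a3 only Idh3a of the 9 fell, where 2.97% were called lower. The 9 genes are among the brighter clusters. With only the 12496 brighter clusters tested (filter at percentile 50), 1440 were called higher with PGC-1a1 and 2080 with PGC-1a4. In that fit 1520 were called lower with PGC-1a2 and 958 with PGC-1a3, all larger shares than over the whole table. The median change of the 9 genes was 0.55 log2 with PGC-1a1, -0.03 with PGC-1a2, 0.05 with PGC-1a3 and 0.26 with PGC-1a4. Over all clusters the median was -0.03, -0.03, -0.02 and -0.02 log2 in the same order. The 4 comparisons share the GFP arrays. The 3 arrays of PGC-1a1 lay above the 3 of GFP in 9 of the 9 genes, where this held for 11.8% of all clusters, and those of PGC-1a4 in 7, where it held for 12.9%. The arrays of PGC-1a2 lay below GFP in 4 genes, where this held for 12.7% of all clusters, and those of PGC-1a3 in 1, where it held for 10.1%. Without GFP replicate 2, PGC-1a1 had 9 calls and PGC-1a3 1, PGC-1a2 had 3, all lower, and PGC-1a4 had 4, all higher. In RNA of a whole culture, fewer cells of a type and less RNA per cell cannot be told apart. Of the 9 measured myotube markers, 3 were lower with PGC-1a1 (Atp2a1 by -0.58 log2, Myog by -0.46 and Tnnc2 by -0.36), 1 with PGC-1a2, 2 with PGC-1a3 and 2 with PGC-1a4. Over all clusters 2.4% were called lower with PGC-1a1, 4.77% with PGC-1a2, 2.97% with PGC-1a3 and 7.22% with PGC-1a4. Their summed signal was 22258 to 22679 with PGC-1a1, 23263 to 24640 with PGC-1a2, 22913 to 23362 with PGC-1a3, 23166 to 24857 with PGC-1a4 and 24249 to 25410 with GFP, and their part in the results was not tested. Of 7 myoblast markers, 1 was higher with PGC-1a1, 1 higher and 2 lower with PGC-1a2, 1 lower with PGC-1a3, and 2 higher and 2 lower with PGC-1a4, and their part was likewise not tested. The shares of all clusters called higher were 4.44%, 4.56%, 5.02% and 7.05% in that order of isoforms.

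**Figure D1:**
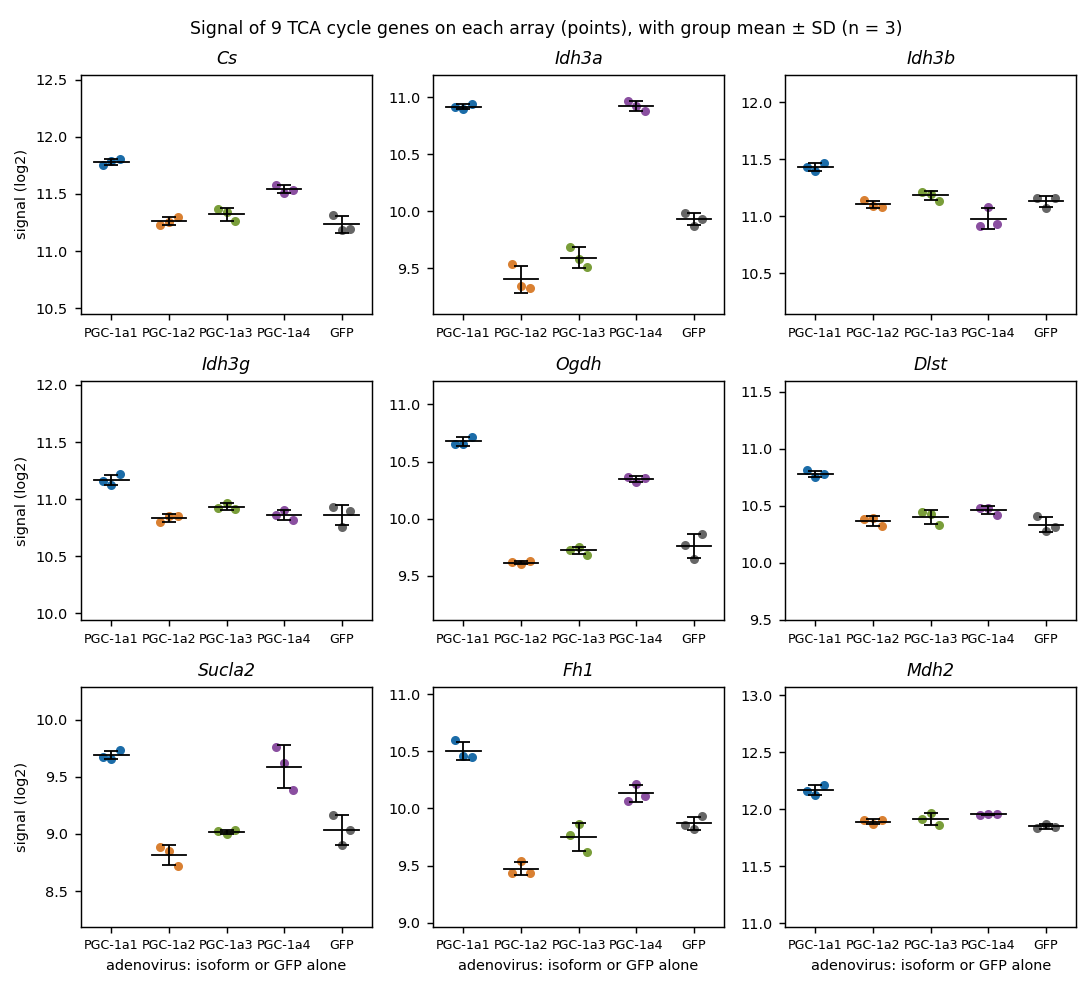
Log2 signal of each of the 9 genes on every array (points), by adenovirus, with the group mean (line) and SD (bars, n = 3); every panel spans the same number of log2 units. All 3 PGC-1a1 arrays lie above all 3 GFP arrays in every panel, and Idh3a has the widest range, with PGC-1a1 and PGC-1a4 together at the top and PGC-1a2 and PGC-1a3 below GFP.

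Cs encodes citrate synthase, which joins acetyl-CoA and oxaloacetate and is widely used as a measure of mitochondrial content in muscle. Its log2 signal was 11.75, 11.79 and 11.80 with PGC-1a1, 11.23, 11.26 and 11.30 with PGC-1a2, 11.37, 11.34 and 11.26 with PGC-1a3, 11.58, 11.51 and 11.53 with PGC-1a4, and 11.32, 11.19 and 11.19 with GFP. The PGC-1a1 arrays were highest and the PGC-1a4 arrays next, both clear of GFP, and the PGC-1a2 and PGC-1a3 arrays overlapped GFP. Cs rose by 0.55 ± 0.06 log2 with PGC-1a1 (1.46-fold, SE, n = 3 per group, limma adjusted p = 0.00011) and by 0.31 ± 0.06 with PGC-1a4 (1.24-fold, adjusted p = 0.0032). The changes with PGC-1a2 (0.03) and PGC-1a3 (0.09) did not pass (adjusted p = 0.84 and 0.42).

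Isocitrate dehydrogenase 3 is built of a catalytic alpha subunit, Idh3a, with Idh3b and Idh3g as its beta and gamma subunits, and it converts isocitrate to 2-oxoglutarate. Idh3a had log2 signals of 10.91, 10.90 and 10.94 with PGC-1a1, 9.54, 9.34 and 9.33 with PGC-1a2, 9.69, 9.58 and 9.51 with PGC-1a3, 10.97, 10.92 and 10.88 with PGC-1a4, and 9.98, 9.88 and 9.93 with GFP. No isoform's arrays overlapped GFP: those of PGC-1a1 and PGC-1a4 were all above it and those of PGC-1a2 and PGC-1a3 all below it. Idh3a rose by 0.99 ± 0.07 log2 with PGC-1a1 (1.98-fold, adjusted p = 8.2e-06) and by 0.99 ± 0.07 with PGC-1a4 (1.99-fold, adjusted p = 3.3e-06). It fell by 0.53 ± 0.07 log2 with PGC-1a2 (adjusted p = 0.00084). It fell by 0.34 ± 0.07 log2 with PGC-1a3 (adjusted p = 0.013), and that call was lost without PGC-1a3 replicate 2 (adjusted p = 0.052) and after centring each array on its median (0.075). Of the 9 genes, Idh3a alone was called in all 4 comparisons with GFP.

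The log2 signals of the beta and gamma subunits moved less. Idh3b had 11.43, 11.39 and 11.47 log2 with PGC-1a1, 10.92, 11.08 and 10.93 with PGC-1a4, and 11.16, 11.07 and 11.16 with GFP, with PGC-1a2 at 11.08 to 11.14 and PGC-1a3 at 11.14 to 11.22. PGC-1a1 was clear of all others, and PGC-1a4 was lowest but overlapped GFP. Idh3b rose by 0.30 ± 0.06 log2 with PGC-1a1 (1.23-fold, adjusted p = 0.010, and 0.0504 without PGC-1a1 replicate 3), while its change with PGC-1a4 was -0.15 ± 0.06 (adjusted p = 0.13). That negative change was called with a variance trend and robust estimation (adjusted p = 0.033) and with only the brighter clusters tested (0.045). Idh3g had 11.16, 11.13 and 11.22 log2 with PGC-1a1, 10.87, 10.91 and 10.82 with PGC-1a4, and 10.93, 10.76 and 10.89 with GFP, with PGC-1a2 at 10.80 to 10.85 and PGC-1a3 at 10.91 to 10.97. PGC-1a1 again stood clear, and PGC-1a4 lay within the range of GFP. Idh3g rose by 0.31 ± 0.06 log2 with PGC-1a1 (1.24-fold, adjusted p = 0.0079), and its change with PGC-1a4 was 0.0041 log2 (95% interval -0.13 to 0.13). With PGC-1a2 and PGC-1a3 both genes overlapped GFP, with changes of -0.03 for each in PGC-1a2, and 0.05 for Idh3b and 0.07 for Idh3g in PGC-1a3.

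The 2-oxoglutarate dehydrogenase complex makes succinyl-CoA. Ogdh encodes its first enzyme (E1) and Dlst its succinyltransferase core (E2). Ogdh had log2 signals of 10.66, 10.65 and 10.72 with PGC-1a1, 9.62, 9.60 and 9.62 with PGC-1a2, 9.73, 9.75 and 9.68 with PGC-1a3, 10.37, 10.32 and 10.36 with PGC-1a4, and 9.77, 9.65 and 9.86 with GFP. The PGC-1a1 and PGC-1a4 arrays lay above GFP without overlap, and the PGC-1a2 arrays lay just below the lowest GFP array. Ogdh rose by 0.92 ± 0.06 log2 with PGC-1a1 (1.89-fold, adjusted p = 5.8e-06) and by 0.59 ± 0.06 with PGC-1a4 (1.50-fold, adjusted p = 4.8e-05). Its change with PGC-1a2 was -0.15 ± 0.06 log2 (adjusted p = 0.17), and without GFP replicate 2, the lowest GFP array, it was -0.20 and called (adjusted p = 0.042). Dlst had 10.81, 10.75 and 10.77 log2 with PGC-1a1, 10.48, 10.48 and 10.42 with PGC-1a4, and 10.41, 10.28 and 10.31 with GFP, with PGC-1a2 at 10.32 to 10.39 and PGC-1a3 at 10.33 to 10.45, both overlapping GFP. Dlst rose by 0.44 ± 0.06 log2 with PGC-1a1 (1.36-fold, adjusted p = 0.00053). With PGC-1a4 all 3 Dlst values lay above GFP, yet the change of 0.13 ± 0.06 did not pass (adjusted p = 0.19).

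Sucla2 had log2 signals of 9.68, 9.66 and 9.73 with PGC-1a1, 8.88, 8.85 and 8.72 with PGC-1a2, 9.02, 8.999 and 9.03 with PGC-1a3, 9.76, 9.62 and 9.39 with PGC-1a4, and 9.17, 8.90 and 9.03 with GFP. Its SD was the largest of the 9 genes in PGC-1a4 (0.19 log2) and GFP (0.13) and the smallest in PGC-1a3 (0.017), and the PGC-1a4 and GFP arrays did not overlap. Sucla2 rose by 0.66 ± 0.09 log2 with PGC-1a1 (1.57-fold, adjusted p = 0.0011) and by 0.55 ± 0.09 with PGC-1a4 (1.47-fold, adjusted p = 0.0018). With PGC-1a2 its 3 values were below those of GFP, and the change of -0.22 ± 0.09 did not pass (adjusted p = 0.20).

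Fh1 encodes fumarase, which hydrates fumarate to malate in mitochondria and also has a cytosolic form. It had log2 signals of 10.60, 10.46 and 10.46 with PGC-1a1, 9.44, 9.54 and 9.44 with PGC-1a2, 9.77, 9.86 and 9.61 with PGC-1a3, 10.07, 10.22 and 10.11 with PGC-1a4, and 9.86, 9.82 and 9.93 with GFP. PGC-1a1 and PGC-1a4 were clear above GFP, PGC-1a2 was clear below it and PGC-1a3 overlapped it. Fh1 rose by 0.63 ± 0.08 log2 with PGC-1a1 (1.55-fold, adjusted p = 0.00031) and fell by 0.40 ± 0.08 with PGC-1a2 (adjusted p = 0.0063). With PGC-1a4 it rose by 0.26 ± 0.08 log2 (1.20-fold, adjusted p = 0.036). That call was near the threshold: it was lost without any 1 GFP array, without PGC-1a4 replicate 2 or 3, after quantile normalization (adjusted p = 0.051) and after median centring (0.055), with an adjusted p of 0.049 to 0.13 when 1 array was left out.

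Mdh2 encodes the mitochondrial malate dehydrogenase, which closes the cycle and also serves the malate-aspartate shuttle. Its log2 signal was 12.16, 12.12 and 12.21 with PGC-1a1, 11.95, 11.96 and 11.96 with PGC-1a4, and 11.83, 11.87 and 11.85 with GFP, with PGC-1a2 at 11.87 to 11.91 and PGC-1a3 at 11.87 to 11.97. Mdh2 rose by 0.32 ± 0.05 log2 with PGC-1a1 (1.25-fold, adjusted p = 0.0024). With PGC-1a4 its 3 values were also above GFP, and the change of 0.11 ± 0.05 did not pass (adjusted p = 0.23, and 0.037 with a variance trend and robust estimation). Of the 9 genes, Mdh2 and the beta and gamma Idh3 subunits had the smallest rises with PGC-1a1.

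**Figure D2:**
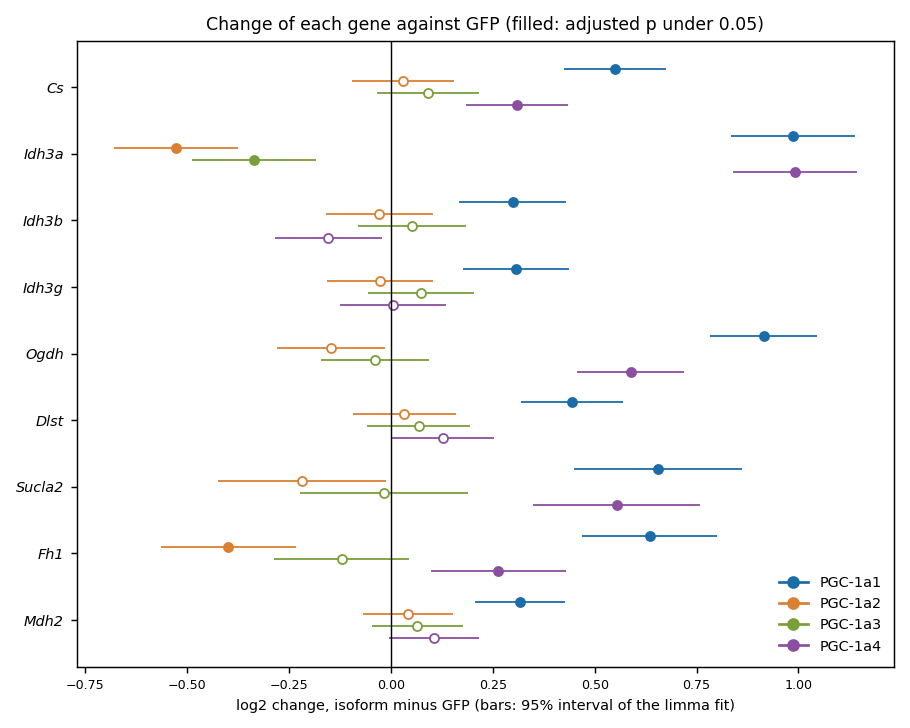
Log2 change of each gene, isoform minus GFP, from the limma fit over all 15 arrays (n = 3 per group); bars are 95% intervals and filled points have an adjusted p under 0.05. The PGC-1a1 points are all filled and right of 0, the PGC-1a4 points run from -0.15 for Idh3b to 0.99 for Idh3a, and only Idh3a and Fh1 have filled points left of 0.

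The isoforms were also compared directly with each other. PGC-1a1 exceeded PGC-1a2 in all 9 genes, by 0.27 (Mdh2) to 1.51 log2 (Idh3a), where 10.2% of all clusters were called higher. It exceeded PGC-1a3 in all 9 genes, by 0.23 (Idh3g) to 1.32 log2 (Idh3a), where 6.48% were called higher. Without PGC-1a1 replicate 3 or PGC-1a3 replicate 3 Idh3b and Idh3g lost that call, and Idh3g lost it also without replicate 1 of either isoform.

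PGC-1a1 exceeded PGC-1a4 in 7 of the 9 genes, where 5.29% of all clusters were called higher. The difference was 0.45 ± 0.06 log2 for Idh3b (adjusted p = 0.00084), 0.30 ± 0.06 for Idh3g (0.0073), 0.33 ± 0.06 for Ogdh (0.0052), 0.32 ± 0.06 for Dlst (0.0047) and 0.37 ± 0.08 for Fh1 (0.0091). Cs (0.24 ± 0.06, adjusted p = 0.021) and Mdh2 (0.21 ± 0.05, 0.022) passed as well, with adjusted p up to 0.076 for Cs and 0.092 for Mdh2 when 1 array of either isoform was left out. Cs lost the call without replicate 2 or 3 of either isoform, and Mdh2 without PGC-1a1 replicate 1 or 3 or any PGC-1a4 array. The other two genes did not pass. The Idh3a difference was -0.0044 log2 with a 95% interval of -0.16 to 0.15, and that of Sucla2 was 0.10 log2 with an interval of -0.10 to 0.31. The interval of Idh3a leaves out the size of the difference in Idh3b, its partner subunit.

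PGC-1a2 was lower than PGC-1a4 in 5 genes (Cs, Idh3a, Ogdh, Sucla2 and Fh1), where 12.6% of all clusters were called lower. Idh3a differed most, by -1.52 ± 0.07 log2 (adjusted p = 6.1e-08), and Cs least, by -0.28 ± 0.06 (adjusted p = 0.0030). PGC-1a3 was lower than PGC-1a4 in the same 5 genes, where 9.79% were called lower, with Idh3a at -1.33 ± 0.07 log2 (adjusted p = 2.8e-07) and Cs at -0.22 ± 0.06 (adjusted p = 0.015, and up to 0.056 without PGC-1a3 replicate 3 or PGC-1a4 replicate 1). Idh3b ran the other way and was higher in PGC-1a3 than in PGC-1a4 by 0.21 ± 0.06 log2 (adjusted p = 0.026), where 13.2% of all clusters were called higher. That Idh3b call was lost without PGC-1a3 replicate 1 or 2 or PGC-1a4 replicate 1 or 3 (adjusted p up to 0.096) and after median centring.

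PGC-1a2 and PGC-1a3 differed in 1 of the 9 genes: Fh1 was lower in PGC-1a2 by -0.28 ± 0.08 log2 (adjusted p = 0.040), where 5.52% of all clusters were called lower. The call was lost without any 1 PGC-1a2 array, without PGC-1a3 replicate 1 or 2 (adjusted p up to 0.16) and after median centring. In the other 8 genes the differences ran from -0.20 (Sucla2) to -0.02 (Mdh2) log2 and did not pass. The Idh3a interval was -0.34 to -0.04 log2.

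The order of the group means can be read gene by gene. In Cs, Ogdh and Fh1 it ran PGC-1a1, PGC-1a4 and then the rest, and each of these first steps was called. In Dlst and Mdh2 PGC-1a1 stood above 4 groups whose neighbours in the order did not differ beyond the threshold. In Idh3b and Idh3g PGC-1a1 again stood first, PGC-1a3 next, and no later neighbours differed by the test. In Idh3a and Sucla2 PGC-1a4 and PGC-1a1 shared the top, their difference not passing, with a called step from them down to GFP.

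In their log2 signals the subunits of 1 enzyme changed by different amounts, which is a description that no test here can establish. Idh3b and Idh3g had brighter GFP means than Idh3a (11.13 and 10.86 against 9.93 log2), and whether their probes respond alike was not tested. Within each array, the log2 signal of Idh3a minus the mean of Idh3b and Idh3g was taken and set against its mean in GFP, since the raw difference between probe sets has no meaning of its own. It was higher than in GFP by 0.68 log2 with PGC-1a1 and by 1.07 with PGC-1a4, and lower by -0.50 with PGC-1a2 and by -0.40 with PGC-1a3. The within-array difference of Ogdh and Dlst was higher than in GFP by 0.47 log2 with PGC-1a1 and 0.46 with PGC-1a4, and it was -0.18 with PGC-1a2 and -0.11 with PGC-1a3. How often isoform and GFP arrays separate in other gene pairs was not counted. In all 8 comparisons, which share the GFP arrays, the 3 isoform arrays lay on 1 side of the 3 GFP arrays. The two-sided exact permutation p was 0.1 in each, also after Benjamini-Hochberg adjustment over the 4 isoforms, which is the smallest that 3 arrays against 3 can give, so none can pass 0.05. For Ogdh and Dlst the within-array difference had an SD of 0.11 log2 in GFP, which is as large as its change with PGC-1a3.

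**Figure D3:**
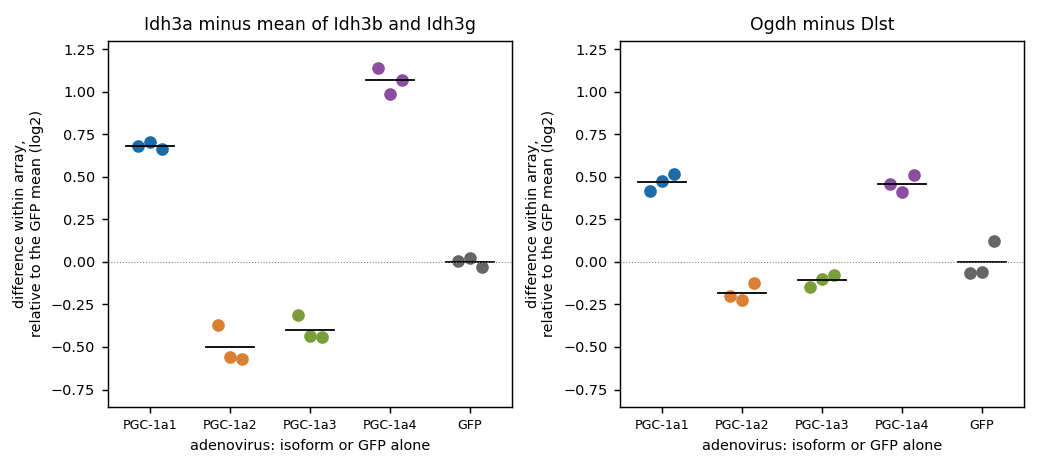
Difference between subunits of 1 enzyme within each array (points, 3 per group, line at the group mean), in log2 relative to the GFP mean. On the left, Idh3a minus the mean of Idh3b and Idh3g stands 0.68 above GFP with PGC-1a1 and 1.07 above it with PGC-1a4, and on the right Ogdh minus Dlst stands 0.47 and 0.46 above it.

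Other genes of the cycle were read from a list of 16, of which 10 had a cluster with 1 symbol. The list includes the remaining subunits of the enzymes above, succinate dehydrogenase (Sdha to Sdhd) and its assembly factors, and the NADP-linked Idh2. With PGC-1a1, 6 of the 10 rose and 0 fell: Dld, the E3 subunit that Ogdh and Dlst share with pyruvate dehydrogenase (0.71 ± 0.11 log2, adjusted p = 0.0015), Sdhd (0.63 ± 0.08), Sdha (0.54 ± 0.06), Suclg1 (0.47 ± 0.08), Sdhc (0.46 ± 0.09) and Sdhb (0.39 ± 0.07). Over all clusters 4.44% were called higher and 2.4% lower with PGC-1a1. The median change of the 10 genes was 0.47 log2, against 0.55 for the 9 genes above and -0.03 for all clusters. With PGC-1a4, 2 of the 10 rose, where 7.05% of all clusters were called higher. They were Sdha, the flavoprotein subunit (0.33 ± 0.06, adjusted p = 0.0022), and Sdhaf4, an assembly factor (0.83 ± 0.22, adjusted p = 0.025). Sdhaf4 lost its call without GFP replicate 2 or 3 or PGC-1a4 replicate 1 or 2 (adjusted p up to 0.10), which leaves 1 of the 10. With PGC-1a2, 2 fell, where 4.77% of all clusters were called lower: Suclg1 (-0.32 ± 0.08, adjusted p = 0.021) and Sdhaf4 (-0.96 ± 0.22, 0.017). Without GFP replicate 1 or 3 or PGC-1a2 replicate 3, 0 fell. The count reached 3 without 1 array and 5 with array weights. Sdha, at -0.19 log2 with PGC-1a2, was called lower without GFP replicate 2 (adjusted p = 0.034), without PGC-1a2 replicate 1 (0.038), with either filter, with a variance trend and with array weights. With PGC-1a3, 0 of the 10 were called by limma, and 0 had an unadjusted p under 0.05. Over all clusters 5.02% were called higher and 2.97% lower with PGC-1a3. The values for Idh2 were 0.17 log2 with PGC-1a1 and 0.18 with PGC-1a4, neither passing (adjusted p = 0.13 and 0.076). Both were called with only the brighter clusters tested (filter at percentile 50, adjusted p = 0.043 and 0.025), with a variance trend and robust estimation (0.041 and 0.022) and with array weights (0.036 and 0.030), and the PGC-1a4 value also with the filter at percentile 25 (0.049).

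Of 3 cytosolic counterparts, Aco1 (the cytosolic aconitase, which is also the iron regulatory protein IRP1) and Idh1 (the cytosolic isocitrate dehydrogenase) were measured. With PGC-1a4 both rose, Aco1 by 0.48 ± 0.07 and Idh1 by 0.68 ± 0.11 log2 (adjusted p = 0.00047 and 0.0016). With PGC-1a1 Aco1 rose by 0.43 ± 0.07 (adjusted p = 0.0023), and Idh1 by 0.54 ± 0.11 (adjusted p = 0.014). Idh1 lost that call without GFP replicate 1 or PGC-1a1 replicate 2 or 3 (adjusted p up to 0.064). With PGC-1a2 Idh1 fell by 0.53 ± 0.11 (adjusted p = 0.013, and up to 0.057 without GFP replicate 3 or PGC-1a2 replicate 2 or 3). Over all clusters 7.05% were called higher with PGC-1a4 and 4.44% with PGC-1a1, and 4.77% were called lower with PGC-1a2. With PGC-1a3 neither gene was called as fitted, where 5.02% were called higher and 2.97% lower. Idh1, at -0.35 log2 with PGC-1a3, was called lower with quantile normalization (adjusted p = 0.0499) and with the filter at percentile 50 (0.040).

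Genes that carry carbon into and out of the cycle were read from a list of 23, of which 18 were measured. With PGC-1a1, 8 rose and 0 fell, where 4.44% of all clusters were called higher and 2.4% lower. They included 3 of the pyruvate dehydrogenase complex (Dlat, its E2 core, at 0.83 ± 0.06 log2, Pdhx at 0.57 ± 0.09 and Pdha1 at 0.33 ± 0.06) and 4 of the malate-aspartate shuttle. These 4 were the carriers Slc25a13 (0.92 ± 0.16), Slc25a12 (0.68 ± 0.05) and Slc25a11 (0.45 ± 0.06) and the aminotransferase Got1 (0.72 ± 0.06). The remaining gene was Me3 (0.36, adjusted p = 0.015). Its call was lost without GFP replicate 1 or PGC-1a1 replicate 1 or 3 (adjusted p up to 0.068). The 8 calls became 7 to 8 without 1 array and 5 to 11 under the other settings. Pdhb, also of the pyruvate dehydrogenase complex (0.45 log2), was called higher with the filter at percentile 50 (adjusted p = 0.030) and with array weights (0.028). Glud1 (0.26) was called higher (0.017 and 0.037) and Pck2 (-0.36) lower (0.029 in each) in the same settings. With PGC-1a4, 5 rose, where 7.05% of all clusters were called higher: the same 4 shuttle genes and Dlat. Got1 rose by 0.63 ± 0.06, Slc25a12 by 0.63 ± 0.05, Slc25a13 by 0.67 ± 0.16 and Dlat by 0.28 ± 0.06 log2. Another 2 fell with PGC-1a4, where 7.22% of all clusters were called lower: Pck2, the mitochondrial PEP carboxykinase, by 0.83 ± 0.11, and Slc25a1, the citrate carrier, by 0.47 ± 0.08. With PGC-1a2, 1 rose and 6 fell, where 4.56% of all clusters were called higher and 4.77% lower, among them Slc25a1 by 0.41 ± 0.08 (adjusted p = 0.0071). That count was 1 to 5 when 1 array was left out: 2 without GFP replicate 1 or 3 or PGC-1a2 replicate 3, and 1 without PGC-1a2 replicate 2. With PGC-1a3, 1 rose and 3 fell, where 5.02% were called higher and 2.97% lower, among them Nnt, the mitochondrial transhydrogenase, by 0.46 ± 0.06 (adjusted p = 0.0011). That count was 2 without GFP replicate 1 or 3 or PGC-1a3 replicate 1 or 3, and 1 without PGC-1a3 replicate 2.

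Regulators known to act on mitochondrial genes were read from a list of 15, all measured. Esrra, which encodes ERRa, had log2 signals of 7.93, 7.94 and 8.11 with PGC-1a1, 6.65, 6.48 and 6.48 with PGC-1a2, 6.57, 6.82 and 6.75 with PGC-1a3, 8.09, 8.13 and 8.16 with PGC-1a4, and 7.02, 7.03 and 7.01 with GFP. It rose by 0.97 ± 0.08 log2 with PGC-1a1 (adjusted p = 1.9e-05) and by 1.11 ± 0.08 with PGC-1a4 (adjusted p = 3.3e-06), and it fell by 0.49 ± 0.08 with PGC-1a2 (adjusted p = 0.0026). With PGC-1a3 it fell by 0.31 ± 0.08 (adjusted p = 0.033), a call lost without any 1 GFP array and without PGC-1a3 replicate 1 or 3 (adjusted p up to 0.14). Esrra and Idh3a were thus each above GFP with PGC-1a1 and PGC-1a4 and below it with PGC-1a2 and PGC-1a3. The pattern was not particular to them: the group means of Ogdh, Sucla2, Fh1, Idh1, Sdhaf4 and Slc25a12, among others, lay on the same sides of GFP. A link between Esrra and these genes was not tested. Sirt3, a mitochondrial deacetylase, rose by 0.86 ± 0.08 with PGC-1a1 and by 0.71 ± 0.08 with PGC-1a4. Esrrb rose by 0.77 ± 0.11 with PGC-1a4, and Esrrg fell by 0.92 ± 0.13 with PGC-1a2. Nrf1, Tfam and Gabpb1 were not called in any of the 4 comparisons with GFP as fitted. Tfam, at 0.32 log2 with PGC-1a1, was called without GFP replicate 1 (0.41, adjusted p = 0.040), with the filter at percentile 50 (0.036) and with array weights (0.034). Gabpb1 was called lower with PGC-1a4 without GFP replicate 2 (adjusted p = 0.046). Gabpa was called higher with PGC-1a3 (0.30 log2, adjusted p = 0.017), a call lost without GFP replicate 3 or PGC-1a3 replicate 1 or 2. Sirt1 was lower with PGC-1a4 (-0.64, adjusted p = 0.00023) and higher with PGC-1a2 (0.37, 0.013) and PGC-1a3 (0.35, 0.021). The last call was lost without GFP replicate 2 or PGC-1a3 replicate 1 or 2. Pprc1 (-0.47, 0.0055) and Ppard (-0.30, 0.023, up to 0.083 without 1 array) were also lower with PGC-1a4. In all, 3 of the 15 rose and 1 fell with PGC-1a1 (4.44% of all clusters were called higher and 2.4% lower). With PGC-1a2, 2 rose and 2 fell (4.56% and 4.77%), and with PGC-1a4, 4 rose and 3 fell (7.05% and 7.22%). The risers with PGC-1a1 and PGC-1a4 include Ppargc1a, the gene that the virus carried, whose rise was set by the design. With PGC-1a3, 2 rose and 1 fell (5.02% and 2.97%), a count of 3 that became 1 without GFP replicate 3 or PGC-1a3 replicate 2 and 0 without PGC-1a3 replicate 1.

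**Figure D4:**
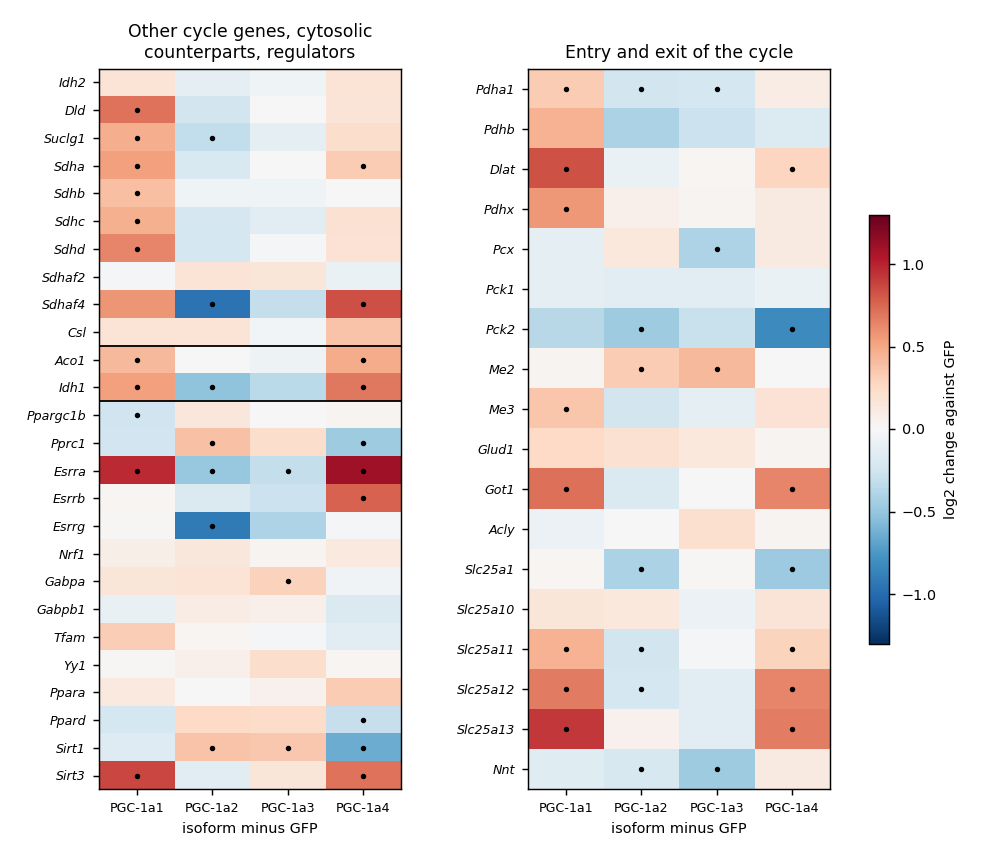
Log2 change against GFP (colour) with each isoform for the measured genes of the other lists, with Ppargc1a left out. A dot marks an adjusted p under 0.05 by limma, and lines separate the lists on the left. The PGC-1a1 column is mostly red among cycle genes, and Esrra is 0.97 and 1.11 with PGC-1a1 and PGC-1a4 and -0.49 and -0.31 with PGC-1a2 and PGC-1a3.

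The 5 group means of each gene, centred on their own mean, were compared with the median centred profile of the 9 genes, which was 0.35 log2 for PGC-1a1, -0.17 for PGC-1a2, -0.11 for PGC-1a3, 0.11 for PGC-1a4 and -0.13 for GFP. Among the 9, Cs was closest to it, with a root mean square difference of 0.027 log2, and Idh3a farthest, at 0.48. Among 8504 other genes of at least median signal, the 10 closest lay between 0.027 and 0.039 log2. They were Vdac2 (an outer-membrane channel), Samm50 (a sorting and assembly protein of the mitochondrial outer membrane), Dcun1d2, Larp1b, Atp6v1d, Nt5c3, Hdhd2, Cox14 (an assembly factor of cytochrome c oxidase), Hibadh (a mitochondrial enzyme of valine breakdown) and Ttc19 (a complex III assembly factor). Vdac2 had differences of 0.43 log2 with PGC-1a1 and 0.21 with PGC-1a4 against GFP, and Samm50 of 0.49 and 0.26. The likeness is over 5 group means only and carries no test.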

How the data were processed

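RNA from 15 samples of myotubes was hybridised to Affymetrix mouse exon arrays. The authors deposited 1 log2 signal for each transcript cluster and array, which was used unchanged. Partek is the tool in the submitters' processing notes. The sources used here do not give its version, the genome build, or how background was corrected and arrays were normalized. With 3 arrays in a group, precision is set by array number.

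Of 23332 clusters, 14996 carried 1 gene symbol, 1019 several and 7317 none. One limma model (version 3.58.1, run in R 4.3.3 with lmFit, then eBayes, 10 residual and 2.09 prior degrees of freedom) covered every cluster and array, without pairing. It gave 10 contrasts, 4 of an isoform with GFP and 6 between isoforms. Benjamini-Hochberg adjustment ran over the whole table within a contrast, with a threshold of 0.05, and the model was tested on simulated data. The 2 subunit differences were compared by exact permutation tests over arrays.

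The members and the gene lists were chosen with earlier results of these data known. Members and measured genes of the lists could be named, and outside them the 10 genes of closest profile. Replicate numbers did not pair the arrays: 11 of 30 same-numbered pairs had correlated deviations above 0.1 (-0.22 to 0.36). The alternatives covered normalization (quantile, median centring), low-signal filters at percentile 25 or 50, a trended and robust variance, weights per array, a replicate block, a fit of only the 2 groups compared and the removal of each array in turn.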

Additional observations from a re-analysis of the deposited data

How the results depend on the processing

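Over the 9 genes and 10 comparisons, 54 of 90 values were called. Across the alternatives 694 of 756 values of these kept their call, 62 lost it and 0 reversed. Of 504 alternative values of the others, 7 became called. The filter at percentile 25 changed 0 calls, the one at percentile 50 added 2, a variance trend added 2, array weights added 2, quantile normalization lost 1, median centring lost 6 and fitting only the 2 groups compared lost 21. That fit has fewer arrays behind its variance. It called 5 genes in PGC-1a1 against GFP, 2 in PGC-1a4 against GFP, 2 in PGC-1a1 against PGC-1a4, and 0 in PGC-1a2 against GFP, PGC-1a3 against GFP and PGC-1a2 against PGC-1a3. With median centring 0 were called in PGC-1a3 against GFP, and in PGC-1a2 against PGC-1a3 it was 0 with median centring, 2 with the filter at percentile 50 and 2 with array weights. With the replicate block, PGC-1a2 against PGC-1a3 had 0 calls (Fh1 adjusted p = 0.05003) and no other call among the 90 changed. Of the 15 arrays, 6 were closest to an array of another group with their own number. Leaving out 1 array gave 8 to 9 calls in PGC-1a1 against GFP, 2 to 3 in PGC-1a2, 0 to 1 in PGC-1a3 (0 without PGC-1a3 replicate 2) and 4 to 5 in PGC-1a4. It gave 9 in PGC-1a1 against PGC-1a2, 7 to 9 against PGC-1a3 and 5 to 6 against PGC-1a4, 0 to 1 in PGC-1a2 against PGC-1a3, 5 in PGC-1a2 against PGC-1a4 and 4 to 6 in PGC-1a3 against PGC-1a4. The subunit differences kept their direction throughout: Idh3a against its partners ran from 0.65 to 0.70 log2 with PGC-1a1, -0.57 to -0.46 with PGC-1a2, -0.44 to -0.38 with PGC-1a3 and 1.03 to 1.10 with PGC-1a4. Ogdh minus Dlst was -0.45 log2 on GFP replicate 3, against -0.64 and -0.63 on GFP replicates 1 and 2. Its change of -0.11 with PGC-1a3 is small beside that spread.

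Over the whole table, 1596 clusters were called in PGC-1a1 against GFP, 393 with only the 2 groups, 951 to 1490 without 1 array and 2994 with array weights. For PGC-1a2 these counts were 2177, 173, 1231 to 2122 and 3492, for PGC-1a3 1865, 36, 865 to 1620 and 3072, and for PGC-1a4 3331, 1014, 2474 to 3349 and 4240. With median centring PGC-1a2 had 1354 and PGC-1a3 1127. Between isoforms, the same 4 counts were 3277, 2097, 2123 to 2707 and 5346 for PGC-1a1 against PGC-1a3, 2119, 910, 1217 to 1669 and 3358 for PGC-1a1 against PGC-1a4 (1364 with median centring), and 2164, 693, 1105 to 1902 and 4009 for PGC-1a2 against PGC-1a3 (1215 with median centring). Median centring moved the share of higher calls to 83.8% in PGC-1a1 against GFP, from 64.9% as deposited, to 60.7% in PGC-1a4 against GFP, from 49.4%, to 64.5% in PGC-1a1 against PGC-1a2, from 53.2%, and to 62.5% in PGC-1a1 against PGC-1a3, from 46.2%. With median centring the share also rose to 58.3% in PGC-1a2 against GFP, from 48.9%. It fell to 53.6% in PGC-1a3 against PGC-1a4, from 57.4%. Array weights took the share to 47.4% in PGC-1a1 against GFP, and fitting only the 2 groups took it to 38.9% of 36 calls in PGC-1a3 against GFP, from 62.8% of 1865. The cause of these shifts was not tested. Raw scanner files were not used here, so other background corrections were not tried.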
